A study of Mus musculus with 6 samples.

Results

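The 9 S100 genes S100a1, S100a4, S100a6, S100a8, S100a9, S100a10, S100a11, S100a13 and S100a16 were followed in healing flexor tendons. They were picked by their symbols from 53819 genes listed in the count table, and all 9 passed edgeR's filter on low counts, as did 17496 genes in all. RNA was sequenced from flexor digitorum longus (FDL) tendons at D28 after complete transection and repair, in 3 DTR and 3 WT libraries with 1 tendon each. DTR mice were Scx-Cre+; DTR F/+, so a diphtheria toxin receptor was switched on wherever the Cre, driven by Scx (a tendon transcription factor), was or had been active. WT mice were Scx-Cre-; DTR F/+ and carried the same receptor allele without the Cre. Mice of both genotypes had surgery at 10 to 12 weeks of age and received 5 daily local injections of 100 ng diphtheria toxin (DT) from D14 to D18, meant to deplete Scx-lineage cells in DTR tendons. This Cre is not inducible, so it marks cells that expressed Scx at any age, and D28 is taken from the methods, which count days from surgery, although the titles of the samples name the depletion. The question put to the genes was whether their transcripts differed between DTR and WT tendons after the depletion.

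S100 proteins are small calcium-binding proteins with a pair of EF-hand motifs that mostly work as dimers. On binding calcium they expose a surface that holds partner proteins such as annexins and nonmuscle myosin, and some are also released from cells, where S100A8 and S100A9 signal through the receptors TLR4 and RAGE. S100A4, also called fibroblast-specific protein 1, is found in fibroblasts and macrophages and marks a population tied to scarring in healing flexor tendon. S100A8 and S100A9 form calprotectin, an abundant protein pair of neutrophils, and S100A10 forms a complex with annexin A2.

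edgeR called 0 of the 9 members different between DTR and WT tendons, as it did 0 of the 17496 tested genes. S100a4 differed by 0.13 ± 0.29 on the log2 scale (SE, DTR minus WT, n = 3 per group), with an interval from -0.59 to 0.85. The estimates of S100a8 and S100a9 were the largest of the 9, at 1.99 ± 1.23 and 2.45 ± 1.33 (SE), and both rested on 1 DTR library. The other 6 members had log2 estimates from -0.13 to 0.20.

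All 9 members lie on chromosome 3, in the order S100a1, S100a13, S100a16, S100a4, S100a6, S100a8, S100a9, S100a11 and S100a10. S100a1 and S100a9 are on the minus strand and the other 7 on the plus strand. S100a1 and S100a13 start back to back, with 42 bases between their starts in GENCODE vM21 and 104 in RefSeq, and the 42 bases are shown because they lie before both genes in GENCODE vM21. Of the 9 members, 8 had a RefSeq promoter window, and the 250 bases before the start are given for S100a4, which names the group, and for S100a8 and S100a9, whose values moved together across libraries. All are 5′ to 3′ on the gene's own strand in GRCm38.p6, and the stretch between S100a1 and S100a13 is on the plus strand. Capitals mark an E-box (CANNTG), a TATA box (TATAAA) or a C/EBP motif (TTGCNNAA).
S100a4 promoter, chr3:90603520-90603769, plus strand: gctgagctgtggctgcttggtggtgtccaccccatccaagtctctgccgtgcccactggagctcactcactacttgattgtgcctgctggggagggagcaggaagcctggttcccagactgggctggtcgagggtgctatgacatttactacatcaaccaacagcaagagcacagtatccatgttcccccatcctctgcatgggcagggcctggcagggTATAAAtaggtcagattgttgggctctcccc
S100a8 promoter, chr3:90668821-90669070, plus strand: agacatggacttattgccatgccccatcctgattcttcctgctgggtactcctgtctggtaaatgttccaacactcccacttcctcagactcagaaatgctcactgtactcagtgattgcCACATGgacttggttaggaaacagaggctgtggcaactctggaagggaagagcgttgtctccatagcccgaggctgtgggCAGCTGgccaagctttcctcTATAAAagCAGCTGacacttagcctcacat
S100a9 promoter, chr3:90695722-90695971, minus strand: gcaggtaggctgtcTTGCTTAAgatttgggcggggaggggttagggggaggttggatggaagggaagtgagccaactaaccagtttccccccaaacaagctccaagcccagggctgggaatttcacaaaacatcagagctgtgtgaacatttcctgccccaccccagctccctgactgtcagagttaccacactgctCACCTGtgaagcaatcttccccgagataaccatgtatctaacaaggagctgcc
Between S100a1 and S100a13 (GENCODE vM21), chr3:90514393-90514434, plus strand: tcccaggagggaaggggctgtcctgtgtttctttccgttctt

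The motifs were searched on both strands. The E-box is the motif that SCX and other basic helix-loop-helix factors bind, and 66.2% of 32851 windows of this length held one. The S100a4 window held none and had a TATA box 31 bases before the start. The S100a8 window held 3 E-boxes, at 130, 50 and 22 bases before the start, and a TATA box at 30. The S100a9 window held 1 E-box at 53 bases and a C/EBP motif, bound by a factor family of myeloid cells, at 236 bases, and had no TATA box. A TATA box was in 12.4% of all windows and a C/EBP motif in 9.56%. The AP-1 motif TGANTCA, in 6.75% of windows, was found at 136 and 38 bases before the start of S100a11 and at 192 bases before 1 of the starts of S100a16. These matches describe the letters in the windows and no binding was measured.

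The libraries held 42744138 to 48854310 counts. The tendon markers were present, and Scx itself had 2202, 2703 and 3064 normalized counts in WT, against 3476, 3407 and 3532 in DTR (log2 fold change 0.39 ± 0.12, adjusted p = 0.371 by edgeR's quasi-likelihood test). All levels called normalized counts were scaled by TMM factors to the average library, and libraries are listed in the order of replicates 1 to 3. Markers of other cell types differed between libraries. Keratinocyte markers (12 genes) summed to 3455, 2133 and 101 CPM in WT and to 45.3, 69.7 and 369 CPM in DTR. Skeletal muscle markers (21 genes) summed to 17714 to 24921 CPM in WT and to 3118, 22601 and 5937 CPM in DTR. These are bulk samples, so fewer cells of a type and less RNA per cell cannot be told apart.

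edgeR called 0 of the 9 members at an adjusted p under 0.05, as it did 0% of the 17496 tested genes. At an unadjusted p under 0.05 in edgeR, 0 of 9 members stood against 11% of all genes. DESeq2 also called 0 of 9 members, where it called 2.65% of 17564 genes. No member had groups that did not overlap, whereas 16.8% of tested genes did, 8.96% with DTR higher and 7.85% with DTR lower. The fitted values were higher in DTR for 8 of 9 members and lower for S100a1, where 9017 of the 17496 tested genes were fitted higher. S100a6 turned lower when library size was the only normalization, and both S100a4 and S100a6 turned lower with some single libraries left out. The median log2 fold change of the 9 members was 0.15, beside 0.0082 over all tested genes.

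**Figure D1:**
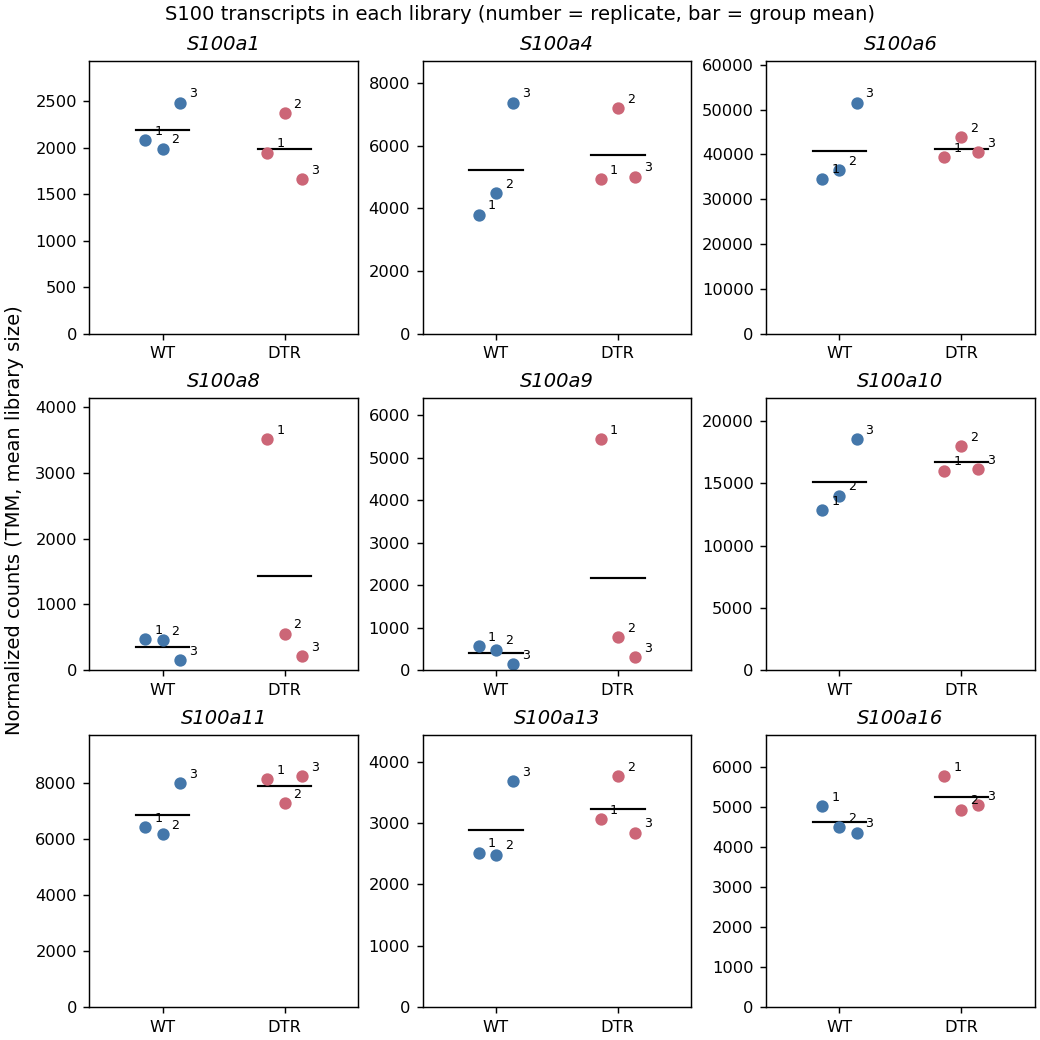
Normalized counts (y axes, each starting at 0) of the 9 S100 genes in the 3 WT and 3 DTR libraries, with a point per library numbered by replicate and a bar at the group mean. WT replicate 3 is the highest library for S100a1, S100a4, S100a6 and S100a10, and DTR replicate 1 stands far above the others for S100a8 and S100a9.

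S100a4 had 3793, 4485 and 7382 normalized counts in WT, against 4941, 7194 and 5014 in DTR. WT replicate 3 was highest and WT replicate 1 lowest, with all 3 DTR libraries between them. The means were 5220.0 ± 1904 in WT and 5716 ± 1281 in DTR (SD, n = 3), and edgeR's adjusted p was 0.898. Leaving out WT replicate 3 moved the log2 estimate from 0.13 to 0.46 (adjusted p = 0.398), and leaving out WT replicate 1 or DTR replicate 2 turned it to -0.053 or -0.067, so its direction rested on single libraries. In GENCODE vM21, 302 of the 584 exon bases of S100a4 (51.7%) are also exon of the read-through gene Gm42674 on the same strand. Gm42674 had a count of 0 in all 6 libraries, and no other member shares exon bases with another gene.

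S100a6, also called calcyclin, follows S100a4 in the order of the members along the chromosome and was the most abundant member. It had 34600.5, 36462 and 51587 normalized counts in WT, against 39433, 43833.5 and 40557 in DTR. WT replicate 3 was again highest and the 3 DTR libraries lay within the range of WT. The log2 fold change was 0.014 ± 0.17 (adjusted p = 0.982), with an interval from -0.39 to 0.42, and its sign turned with library size as the only normalization (-0.011). S100a6 took 44.7% to 53.6% of the members' counts in each library. The ratio of S100a4 to S100a6 counts was 0.110, 0.123 and 0.143 in WT and 0.125, 0.164 and 0.124 in DTR, so the groups overlapped.

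The 5 genes whose log2 CPM most resembled that of S100a4 over the 6 libraries, among 14400 genes averaging 50 or more normalized counts, were Mrps26 (Pearson's r = 0.991), Rras (0.990), Stk16 (0.990), 9530077C05Rik (0.984) and Ptchd1 (0.984). Rras, a small GTPase, had 2824, 3078 and 4120 normalized counts in WT, against 3281, 3832 and 3273 in DTR. Like S100a4 it was highest in WT replicate 3 and next in DTR replicate 2. Mrps26 is a mitochondrial ribosomal protein gene and Stk16 encodes a kinase. Pearson's r does not measure the size of a change. Mrps26 ran only from 954 to 1043 normalized counts, where S100a4 ran from 3793 to 7382. The points are 6 libraries picked over many genes, so these values are a description.

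S100a10 and S100a11 bind annexins. S100a10 had 12838, 13982 and 18518 normalized counts in WT, against 15990.4, 17969 and 16116 in DTR. The DTR libraries were inside the WT range, and the log2 fold change was 0.14 ± 0.15 (adjusted p = 0.744). Anxa2, the partner of S100a10, had 39466, 41045 and 53519.6 normalized counts in WT, against 49175, 50488 and 51561 in DTR. The count ratio of S100a10 to Anxa2 was 0.325, 0.341 and 0.346 in WT and 0.325, 0.356 and 0.313 in DTR.
S100a11 had 6422, 6181 and 7987 normalized counts in WT, against 8129, 7282 and 8248 in DTR. DTR replicates 1 and 3 were above all WT libraries, but DTR replicate 2 was below WT replicate 3. The log2 fold change was 0.20 ± 0.12, with an interval from -0.078 to 0.48 (adjusted p = 0.546). Anxa1, a partner of S100a11, had a log2 fold change of 0.26 ± 0.14 (adjusted p = 0.510).

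S100a16 is a widely expressed member. It had 5016, 4483 and 4353 normalized counts in WT, against 5766, 4930.2 and 5039 in DTR. DTR replicate 2 was below WT replicate 1, and otherwise the DTR libraries were above WT. Its log2 fold change was 0.18 ± 0.098, from -0.043 to 0.41, and its adjusted p of 0.509 was the lowest of the 9.
S100a13, which takes part in the release of FGF1 from cells, had 2521, 2483 and 3683 normalized counts in WT, against 3061, 3769 and 2841 in DTR. DTR replicate 2 and WT replicate 3 were the high libraries, and the log2 fold change was 0.15 ± 0.18 (adjusted p = 0.777).

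S100a1, known from heart and skeletal muscle where it binds the ryanodine receptor, was fitted lower in DTR. It had 2082, 1990 and 2484 normalized counts in WT, against 1946, 2368 and 1658 in DTR. DTR replicate 3 was lowest, but DTR replicate 2 was above WT replicates 1 and 2. The log2 fold change was -0.13 ± 0.15, with an interval from -0.48 to 0.21 (adjusted p = 0.755). DTR replicate 2 was also the DTR library with the highest sum of muscle markers. WT replicate 3, the highest library for S100a1, had the lowest muscle sum in WT (17714 CPM). DTR replicate 1 had a lower muscle sum than DTR replicate 3 but more S100a1. The part of muscle RNA in these values was not tested. S100a1 and its close neighbour S100a13 were fitted in opposite directions, and neither passed the test.

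**Figure D2:**
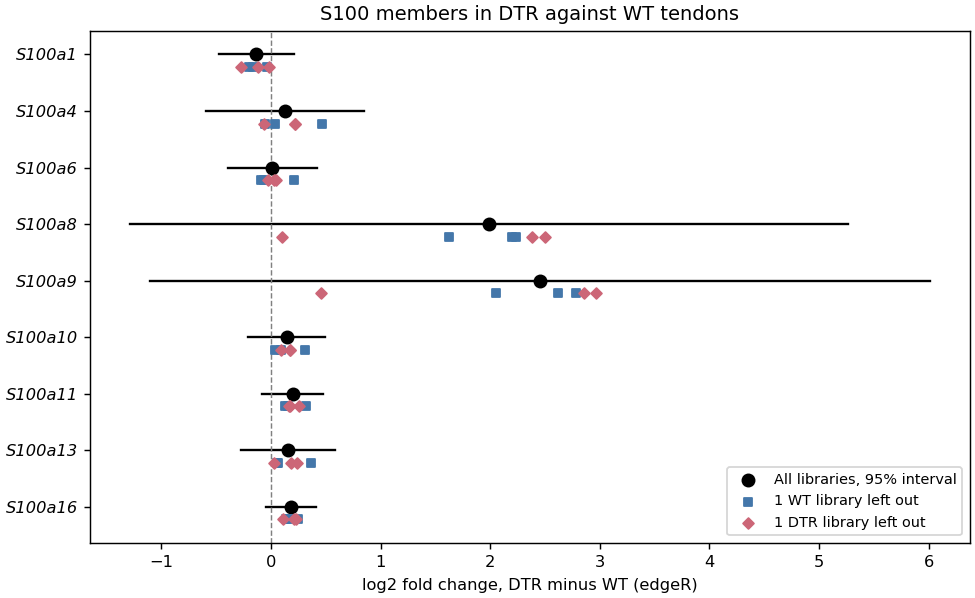
Log2 fold change, DTR minus WT, of the 9 S100 genes (x axis) by edgeR, with black points and lines for the estimates and 95% intervals from 6 libraries, blue squares for estimates without 1 WT library and red diamonds for estimates without 1 DTR library. All 9 intervals include 0, and for S100a8 and S100a9 1 red diamond, without DTR replicate 1, lies far to the left of the others.

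S100a8 had 469, 455 and 153 normalized counts in WT, against 3512, 558 and 215 in DTR. DTR replicate 1 was 6.30 times the next highest library, and DTR replicate 3 was lower than WT replicates 1 and 2. The log2 fold change was 1.99 ± 1.23, with an interval from -1.28 to 5.27 (adjusted p = 0.592), and DESeq2 gave an adjusted p of 0.478.
S100a9 had 562, 486 and 144 normalized counts in WT, against 5433, 782 and 309 in DTR. DTR replicate 1 was 6.94 times the next library, and the other DTR libraries were on both sides of WT replicate 1. The log2 fold change was 2.45 ± 1.33, from -1.11 to 6.01 (adjusted p = 0.544). DESeq2 gave S100a9 an unadjusted p of 0.038, as 1 of 2365 genes under 0.05 there, and an adjusted p of 0.344. Without DTR replicate 1, the log2 fold changes were 0.10 for S100a8 (adjusted p = 0.980) and 0.45 for S100a9 (adjusted p = 0.900). The order of the 6 libraries was the same for both genes, with DTR replicate 1 highest, DTR replicate 2 next and WT replicate 3 lowest.

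The count ratio of S100a8 to S100a9 was 0.834, 0.936 and 1.06 in WT and 0.646, 0.713 and 0.694 in DTR. All 3 DTR libraries were below all 3 WT libraries. The exact binomial (Clopper-Pearson) 95% intervals, which cover counting error only, were 0.735 to 0.945 for WT replicate 1 and 0.640 to 0.794 for DTR replicate 2, so these overlapped. This ratio was chosen after the values were seen. Full separation of the groups fixes the outcome of the test below, so the test adds nothing to it. The adjustment does not account for that choice. An exact two-sided permutation test over the samples gave p = 0.1, the smallest that 3 against 3 allows, and 0.3 after Benjamini-Hochberg adjustment over the 3 ratios compared. The ratios of S100a10 to Anxa2 and of S100a4 to S100a6 had exact permutation p of 0.7 and 0.5, and 0.7 after adjustment for both.

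The neutrophil markers (11 genes, 5 of them tested, 0 called) summed to 21.5, 18.5 and 14.2 CPM in WT and to 61.6, 19.3 and 19.0 CPM in DTR, with DTR replicate 1 again highest. All 5 tested markers were fitted higher in DTR. The chemokine receptor Cxcr2 had 467 normalized counts in DTR replicate 1 and 29.1 to 83.2 in the other libraries, and Csf3r, the G-CSF receptor, had 2258 against 542 to 826. These 2 were picked after their values were seen. Csf3r held the most counts of the 11 markers in every library, so it weighs most in the sum. Of the 11 markers, 7 were highest in DTR replicate 1, among them Ltf at 6 counts and Camp at 21. Camp also had 21 counts in DTR replicate 3. Prtn3 was highest in DTR replicate 3, at 53.4 normalized counts against 42.3 in DTR replicate 1, as was Elane, and Ngp and Mpo were at 0 in DTR replicate 1. The defining marker Ly6g had a count of 0 in the 3 WT libraries and of 4, 1 and 1 in DTR. Macrophage markers, which are far more abundant, summed to 3756 to 4597 CPM in WT and 4066 to 4449 CPM in DTR. Of these 11 markers, 4 were fitted higher and 7 lower in DTR. edgeR called 0 of them and DESeq2 called 1, Cd163 (edgeR log2 fold change -1.52 ± 0.31, DESeq2 adjusted p = 2.7e-06). WT replicates 1 and 2, the WT libraries with the higher S100a8 and S100a9, also had the highest keratinocyte sums. Among the DTR libraries, replicate 3 had the highest keratinocyte sum (369 CPM) but the lowest S100a8 and S100a9. DTR replicate 1, the highest for both genes, had the lowest keratinocyte sum (45.3 CPM). The part of these cell types in the S100a8 and S100a9 values was not tested.

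**Figure D3:**
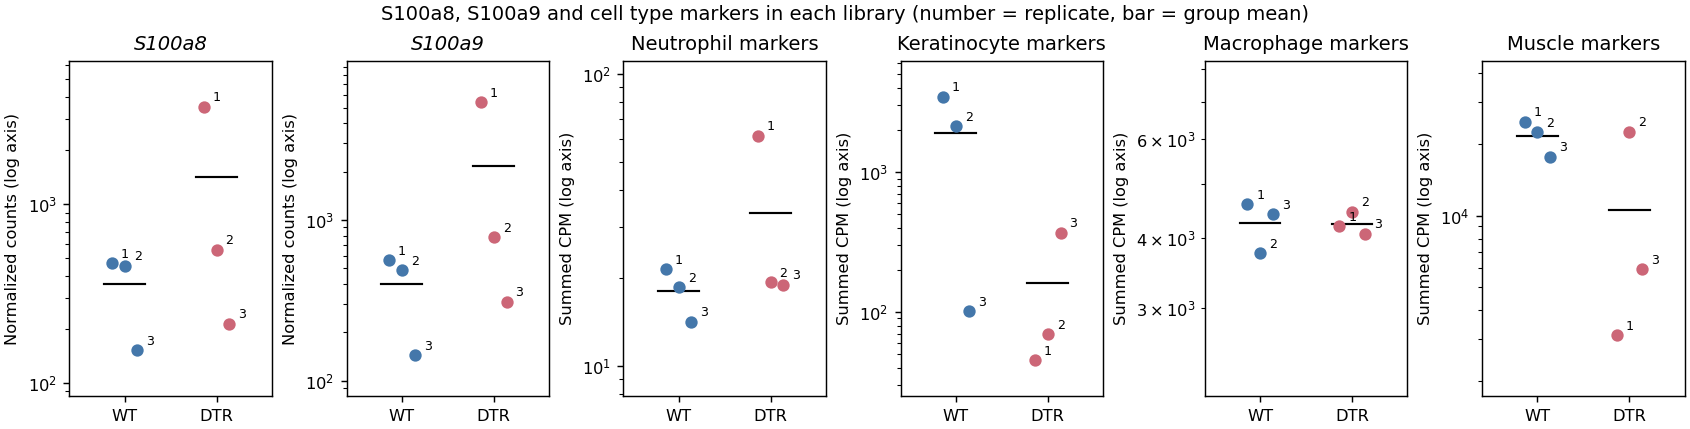
S100a8 and S100a9 in normalized counts, and the summed CPM of neutrophil, keratinocyte, macrophage and muscle markers (log y axes), in the 3 WT and 3 DTR libraries, with a point per library numbered by replicate and a bar at the group mean. DTR replicate 1 is highest for S100a8, S100a9 and the neutrophil sum (61.6 CPM), and the keratinocyte sum is highest in WT replicates 1 and 2.

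Across the 9 members, DTR replicate 1 was highest for 3 and WT replicate 3 for 4, and DTR replicate 2 was second for 6. WT replicate 3 was also lowest for 3 members, S100a8, S100a9 and S100a16. Together the members took 0.149%, 0.159% and 0.210% of the counts in WT and 0.182%, 0.190% and 0.182% in DTR. The spread within WT exceeded the distance between the groups.

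Levels of different genes were compared per kb of merged exon in GENCODE vM21, an annotation that may not be the one the counts were made with. S100a6 was highest, at 29907 ± 6815 normalized counts per kb in WT and 30193 ± 1673 in DTR (SD, n = 3). S100a11 (13431 ± 1919 in WT), S100a10 (12469 ± 2478) and S100a4 (8938 ± 3260) followed, and the WT ranges of S100a11 and S100a10, and of S100a10 and S100a4, overlapped. S100a13 (4050 ± 953), S100a1 (3149 ± 379) and S100a16 (2856 ± 217) came next, and S100a13 and S100a1 overlapped, as did S100a1 and S100a16. S100a9 (762 ± 426) and S100a8 (517 ± 257) were lowest in WT and also overlapped. The levels of S100a4 and S100a13 did not overlap in either group. The place of S100a4 is uncertain, because the counting of reads in the bases it shares with Gm42674 is not known. If all its counts lay in its 282 unshared exon bases, its mean would be 18511 ± 6751 per kb in WT and 20270.3 ± 4542 in DTR. That would place S100a4 second to S100a6 in both groups. Reads in the unshared bases were not counted apart. In DTR the mean of S100a9 was 4167 ± 5425 per kb, above the mean of S100a16 (3244 ± 281), through DTR replicate 1.

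**Figure D4:**
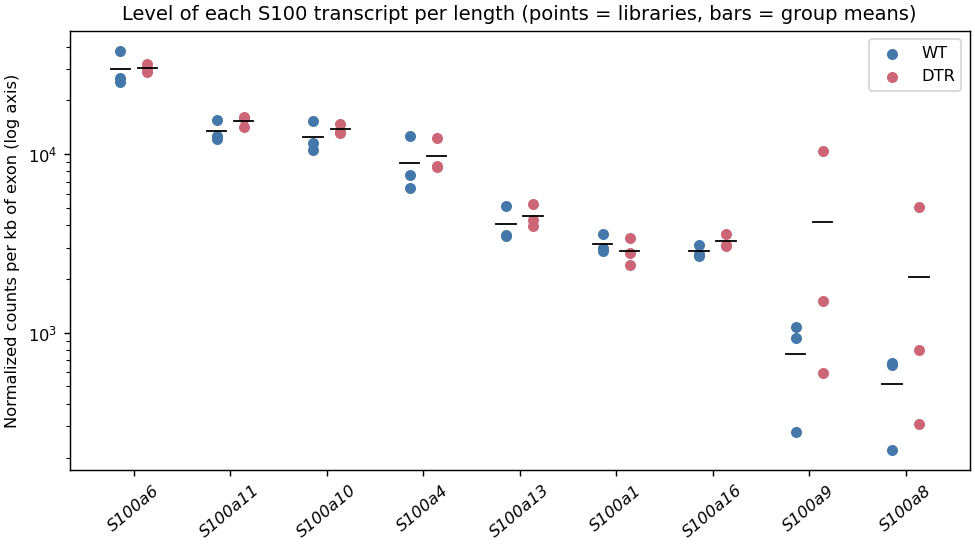
Normalized counts per kb of merged exon (log y axis) for the 9 S100 genes, ordered by the WT mean, with points for the 3 WT (blue) and 3 DTR (red) libraries and bars at the group means. S100a6 is highest in both groups, and the DTR points of S100a8 and S100a9 spread most widely.

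Of the 12 other S100 symbols looked up, 9 were listed and 7 tested. Of these 7, 2 were fitted higher and 5 lower in DTR, and edgeR called 0. S100b, a Schwann cell and cartilage member, had 668, 706 and 1113 normalized counts in WT, against 756, 989 and 886 in DTR (log2 fold change 0.082 ± 0.21, adjusted p = 0.915). The 8 Schwann cell markers summed to 623 to 1144 CPM in WT and 452 to 790 CPM in DTR, and their part in the S100b value was not tested. S100a14, an epithelial member, had 1962, 784 and 10.4 in WT and 16.5, 7.65 and 269 in DTR. Its 3 high libraries were those with the highest keratinocyte sums, WT replicates 1 and 2 and DTR replicate 3. The S100 fused-type genes Flg (filaggrin) and Hrnr (hornerin), which build the outer skin layer, were also above 0 in these 3 libraries and at 0 in the other 3. So was Flg2, while Rptn and Crnn were highest in these 3 but not at 0 in all the others. Tchh and Tchhl1 did not follow this pattern. Tchh had 511, 196 and 235 normalized counts in WT, against 206, 150 and 207 in DTR, and Tchhl1 had counts of 6 to 22. Among the 7 fused-type genes, 5 were tested, all 5 were fitted lower and 0 were called, and the part of skin in these values was not tested. S100a7l2 was at 0 in all 6 libraries.

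Of 17 genes for intracellular partners of S100 proteins, 16 were tested. edgeR called 0 of them, 8 were fitted higher and 8 lower, and their median log2 fold change was 0.0053. The groups did not overlap for 2 with DTR higher and for 5 with DTR lower, where 8.96% and 7.85% of all tested genes did so. Myh9, the nonmuscle myosin that S100A4 binds, had 18173, 17961 and 18301 normalized counts in WT, against 27240.2, 18438 and 19512 in DTR. The 3 DTR libraries were above WT, DTR replicate 2 narrowly, and the log2 fold change was 0.26 ± 0.16 (adjusted p = 0.555). Its paralog Myh10 had 2561, 2594 and 2838 in WT and 3880.1, 3306 and 3157 in DTR (0.37 ± 0.10, adjusted p = 0.343). Fgf1, a growth factor released with S100A13, had 1065, 1296 and 1062 in WT and 772, 824 and 803 in DTR. Its log2 fold change was -0.51 ± 0.11, which passed in DESeq2 (adjusted p = 0.0188) and not in edgeR (adjusted p = 0.274). Anxa11 was also lower without overlap, at -0.32 ± 0.095 (adjusted p = 0.353). Ryr1, Ryr2 and Myh14 were lower without overlap as well, with Ryr1, the skeletal muscle ryanodine receptor, at -1.94 ± 0.76 (adjusted p = 0.460), beside the lower muscle sums of DTR replicates 1 and 3. The part of muscle in the Ryr1 value was not tested.

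The 5 genes of the receptors for extracellular S100 proteins were all tested, with 4 fitted higher, 1 lower and 0 called. Ager, which encodes RAGE, had 159, 136 and 156 normalized counts in WT, against 143, 116 and 194 in DTR (log2 fold change 0.0073 ± 0.24, adjusted p = 0.993). Tlr4 had 2326, 2255 and 2231 in WT and 2451, 2995 and 2100.4 in DTR (0.15 ± 0.13, adjusted p = 0.680). For both receptors the WT libraries lay within the range of DTR.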

How the data were processed

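Per the labels and the methods, the authors trimmed reads (FastP), assigned them to genes (featureCounts) and deposited raw counts plus a signal table of normalized counts. In the latter, every library's values equalled its counts over a single number, its DESeq2 size factor. The genome build, annotation, aligner and strand setting are not given in the sources used here, and the labels name both a TruSeq Stranded and a SMARTER kit. The count test was edgeR 4.0.16 in R 4.3.3 (TMM, filterByExpr, robust quasi-likelihood fit on genotype, n = 3 per group, Benjamini-Hochberg over 17496 genes, threshold 0.05). Each standard error came from the estimate and the root of its F statistic. DESeq2 1.42.0, limma 3.58.1, other normalizations and filters, the replicate number as a block and each library left out were alternatives. Totals of 42744138 to 48854310 counts per library make counting error small beside the spread of 3 samples, and replicate libraries differed far beyond sampling noise. The fits were tested on simulated data. Named genes were the 9 members, the other S100 genes, fused-type genes, partners and receptors, and the 5 genes most like S100a4. Marker genes of other cell types were given as sums, and Scx and some of these markers were also given singly. Cxcr2, Csf3r, Ltf, Camp, Prtn3, Elane, Ngp, Mpo, Cd163 and the 3 count ratios were added after the values were seen. The members were picked by symbol, and they and the lists were chosen with earlier results of these data known. Promoter sequences are from RefSeq (GRCm38.p6).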

Additional observations from a re-analysis of the deposited data

How the results depend on the processing

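The count of called S100 members was 0 under all 15 alternatives. The count of called genes was 0 by edgeR, 466 by DESeq2, 83 without a filter on low counts, 1 with the replicate block, and 0 to 544 with 1 library left out (544, of which 441 lower, without DTR replicate 2). At an unadjusted p under 0.05, edgeR had 1918 genes. The S100a4 log2 fold change ran from -0.067 to 0.46 with 1 library left out, negative without WT replicate 1 (-0.053) and without DTR replicate 2 (-0.067), and was 0.17 with the replicate block. S100a6 was negative with library size as the only normalization (-0.011) and ran from -0.093 to 0.21 with 1 library left out, negative without WT replicate 1 (-0.093), WT replicate 2 (-0.062) or DTR replicate 2 (-0.030). The other 7 members kept their direction under all 15 alternatives. The cause of these changes was not tested. Same-numbered libraries had correlations of deviations from the group mean of -0.19, -0.15 and -0.68, and unlike-numbered ones ran from -0.45 to 0.56. With 3 libraries per group these correlations constrain each other, so they cannot decide whether the replicate numbers pair the samples. All S100a4 counts were also divided by its 282 unshared exon bases alone, an alternative added after seeing the data. The mean was then 18511 in place of 8938 normalized counts per kb in WT. With 3 libraries per group, the interval of the S100a4 difference ran from -0.59 to 0.85.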
